A study of Mus musculus with 16 samples.

Results

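The effect of the Nup153 hairpin shNup153-2 on poly(A) RNA of mouse cortical neurons was compared between silenced and basal cultures, as the difference between the hairpin's effect in silenced neurons and its effect in basal neurons. The comparison took 12 of the 16 libraries of the series by their group and all 26371 gene symbols that both deposited count tables share, with no selection of genes by their values. All groups held primary cortical neurons from C57/BL6 embryos at embryonic day 17.5 to 19.5, with the cortices of a litter pooled into 1 replicate. Every culture received an adeno-associated virus (AAV) from day 8 in vitro until collection at day 13. Silenced shNup153-2 cultures (3 libraries) and silenced shControl cultures (3 libraries) were also treated with tetrodotoxin (TTX, 1 to 2 µM, 24 hours from day 12) and with D-AP5 (100 µM) during 6 hours. Basal shNup153-2 cultures (2 libraries) and basal shControl cultures (4 libraries) were given neither drug, and no uninfected culture was analysed here. The promoter that drives the hairpins is not given in the labels, and samples went to sequencing only where the knockdown had been judged sufficient, so the Nup153 level is also a criterion of selection.

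Nup153 is a nucleoporin of the nuclear basket, the filamentous structure on the chromatin side of the nuclear pore. The series title connects it with histone deacetylase 1 and with neuronal responsiveness. Tetrodotoxin blocks voltage-gated sodium channels and thereby action potentials, and D-AP5 blocks NMDA-type glutamate receptors, so that together they remove most calcium entry driven by firing and synaptic input. Calcium entry normally drives a transcriptional programme in neurons: immediate early genes such as Fos, Npas4 and Nr4a1 follow within minutes without new protein synthesis, and late genes such as Bdnf follow through the factors that the early genes encode. A hairpin effect on such genes can therefore be measured with and without the activity that normally induces them.

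Library totals ranged from 27975274 to 56299817 counts, and 20926 genes passed the filter on low counts. Genes expressed across neurons marked every library: the mean log2 CPM, where CPM is the count divided by the TMM-normalized library size, over 14 pan-neuronal genes lay between 8.02 and 8.99. Markers of other cell types varied between the libraries. Over 20 astrocyte markers this mean was 2.87 to 5.65 in silenced shNup153-2 libraries, 3.02 to 5.6 in silenced shControl libraries, 6.35 and 6.67 in basal shNup153-2 libraries and 4.57 to 6.58 in basal shControl libraries. Over 18 oligodendrocyte lineage markers it was 1.26 to 2.89, 1.29 to 2.55, 0.26 and 0.43, and 0.14 to 0.94 in the same groups. In bulk RNA, fewer cells of a type and less RNA per cell cannot be told apart.

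The 4 basal shControl libraries fell into 2 pairs. On the first principal component of log2 CPM, which held 44.03% of the variance, replicates 1 and 3 scored 71.9 and 73.8 and lay near the basal shNup153-2 libraries (90.4 and 94.5). Replicates 2 and 4 scored -18.7 and 11.5, closer to the silenced libraries, which scored -73.5 to -28.4. Gfap, an astrocyte filament protein, had 89.7 and 148 CPM in replicates 1 and 3, against 1.66 and 10.6 CPM in replicates 2 and 4. In basal shNup153-2 libraries Gfap had 75.03 and 258 CPM, and it had at most 4.57 CPM in the 6 silenced libraries. Fos had 18.0 and 23.1 CPM in replicates 1 and 3, against 3.50 and 6.55 CPM in replicates 2 and 4. The labels give no reason for the split. Since the difference between states subtracts these 4 libraries, its counts are given with all 4 and with each pair left out, and the part of cell composition in them was not tested. Silencing is also confounded with the deposited table, so that a state effect and any other difference between the 2 sets of libraries cannot be told apart. A difference acting equally on both hairpins of a table cancels in the difference between states.

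The target transcript was reduced in both states. Nup153 (chromosome 13, 46679905 to 46727940, minus strand, GRCm38, the assembly also called mm10) stood at 10.6, 13.2 and 9.17 CPM in silenced shNup153-2 libraries, against 62.9, 50.7 and 60.1 CPM in silenced shControl libraries. It stood at 13.8 and 11.7 CPM in basal shNup153-2 libraries, against 96.6, 53.3, 78.4 and 57.6 CPM in basal shControl libraries. The knockdown and control libraries did not overlap in either state. The log2 fold change was -2.40 (SE 0.23) in silenced cultures and -2.49 (SE 0.27) in basal cultures, with edgeR FDR (Benjamini-Hochberg adjusted p of the quasi-likelihood test) of 0.000899 and 0.000167. The difference between states was 0.09 on the log2 scale, with a 95% interval of -0.62 to 0.80 and an edgeR FDR of 0.92. Hdac1, the deacetylase named in the series title, did not pass the test in either state, with log2 fold changes of -0.09 (SE 0.17) in silenced and -0.41 (SE 0.18) in basal cultures.

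Across genes, the hairpin's effect was smaller and passed the test less often in silenced cultures. At an FDR of 0.05, 222 genes rose and 285 fell in silenced cultures, which is 1.06% and 1.36% of the genes tested. In basal cultures 2029 rose and 1804 fell, or 9.7% and 8.62%. The shNup153-2 and shControl libraries did not overlap for 24.3% of genes in silenced and for 42.8% in basal cultures. The median SE was 0.28 in silenced and 0.30 in basal cultures. These values are close by construction, since 1 fit of all 12 libraries gives both states a shared estimate of the spread. The SD of the log2 fold changes was 0.59 in silenced and 0.89 in basal cultures. With replicate number as a block within each state, 443 genes rose and 438 fell in silenced cultures. In separate fits of each state, 652 genes were called in silenced and 1880 in basal cultures. Without basal shControl replicates 2 and 4 the silenced calls numbered 1184, and without replicates 1 and 3 they numbered 1186. The silenced libraries were the same in these fits, so the silenced count depends on the spread among basal controls. Single libraries moved these counts: silenced calls numbered 68, 292 and 153 without shNup153-2 replicate 1, 2 or 3 of the silenced cultures and 77, 332 and 196 without shControl replicate 1, 2 or 3. They numbered 314 and 313 without basal shNup153-2 replicate 1 or 2, and basal calls then numbered 934 and 1188. The difference itself was then tested per gene. No gene passed an FDR of 0.05 in edgeR (0% of the genes tested), and the smallest value was 0.0549. At an unadjusted p under 0.05 there were 2393 genes, of which 1230 had a negative difference, with the silenced effect below the basal one (5.88%), and 1163 a positive one (5.56%). DESeq2 called 285 genes on the same counts, 199 negative and 86 positive (0.951% and 0.411%), limma-voom called 1, and edgeR with the replicate block called 2, with 3616 genes at an unadjusted p under 0.05.

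The count of differences depended on which basal controls were used. With basal shControl replicates 1 and 3 as the only basal controls, edgeR called 13 differences between states, and with replicates 2 and 4 as the only ones it called 4231. The slope of silenced on basal log2 fold changes over genes called in basal cultures was 0.38 with all 4 controls, 0.43 with replicates 1 and 3 and 0.16 with replicates 2 and 4. Leaving out basal shControl replicate 1 alone gave 12 differences, and leaving out silenced shControl replicate 2 alone gave 5. The genes of this slope were selected on their basal values, which favours large basal effects. Over the 507 genes chosen in silenced cultures instead, the slope of basal on silenced log2 fold changes was 1.02. By this slope the effects in the 2 states were about equal. These genes, however, were selected on their silenced values, which favours large silenced effects. Neither slope is free of its selection. The basal effect was the larger one, with the same sign, for 340 of these genes, and the median ratio of basal to silenced log2 fold change was 1.23.

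**Figure D1:**
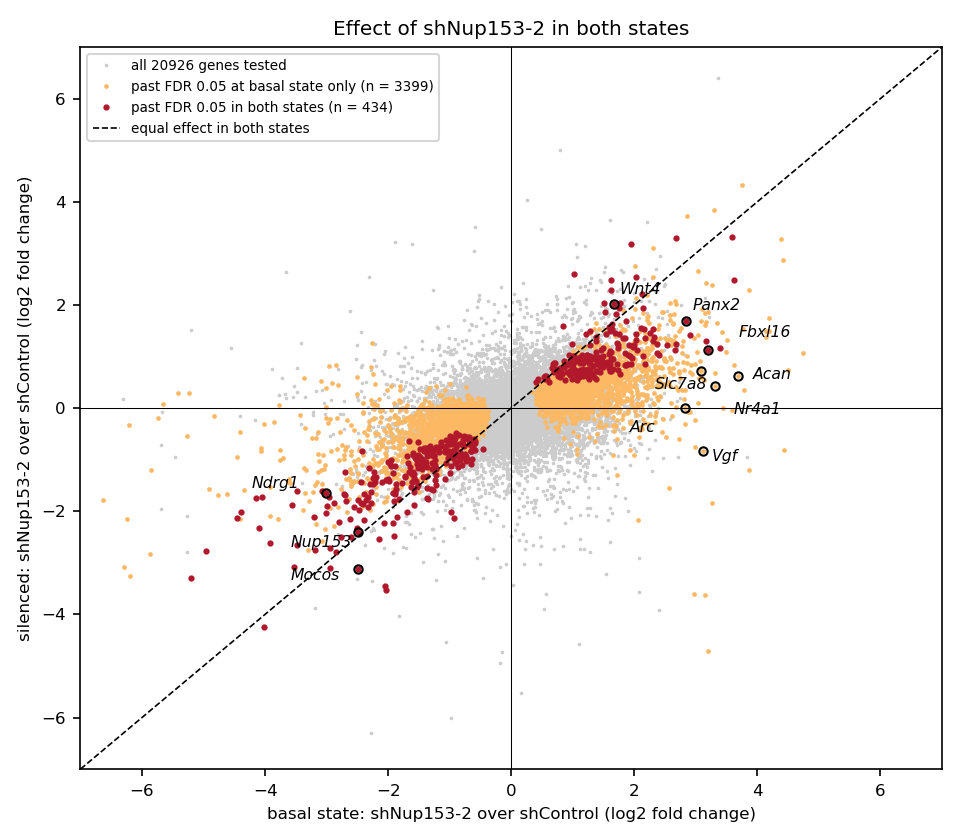
Log2 fold change of shNup153-2 over shControl in silenced cultures (vertical axis) against that in basal cultures (horizontal axis), 1 point per gene over 20926 genes, with 2 genes outside the axis limits. Of the 3399 genes past FDR 0.05 in basal cultures alone, 3047 have the same sign in both states. The median silenced to basal ratio is 34.5% for the 3399 and 76% for the 434 genes past it in both states. Genes were sorted by whether the silenced effect passed, which by itself sets these ratios apart.

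By the calls of both states, 434 genes were retained, meaning that they passed an FDR of 0.05 in both states in the same direction (2.07% of the genes tested). Of these, 191 rose and 243 fell. They make up 85.6% of the genes called in silenced cultures and 11.3% of those called in basal cultures, and with the replicate block they numbered 704. Leaving out 1 library at a time gave 65 to 557 retained genes, the fewest without silenced shNup153-2 replicate 1 (65) and silenced shControl replicate 1 (74). A retained effect was not always an equal one: 340 of the 434 had a smaller effect in silenced cultures, and the median ratio of silenced to basal log2 fold change was 76%. Of the genes called in basal cultures alone, 3399 showed neither an effect in silenced cultures nor a difference between states that passed the test, so that they can be called neither kept nor lost. Their median ratio of silenced to basal effect was 34.5%, with the same sign in 3047 and the opposite sign in 352. The 2 classes were sorted by whether the silenced effect passed, which by itself sets 34.5% and 76% apart. A further 73 genes, 31 that rose and 42 that fell, were called in silenced cultures alone, and 63 of them had the same sign in basal cultures. No gene met the criteria for a lost, weakened or gained effect with edgeR, since these require a difference between states past the threshold, and DESeq2 placed 206 genes in the lost and 63 in the weakened class.

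Immediate early genes showed the widest gap in median effect between the states among the gene lists examined. Of 33 immediate early genes tested, 0 rose and 1 fell in silenced cultures, while 17 rose and 0 fell in basal cultures. Over all genes tested, 1.06% rose and 1.36% fell in silenced cultures, and 9.7% rose and 8.62% fell in basal cultures. The few silenced calls are thus near the share over all genes and no trait of the list. Their median log2 fold change was -0.09 in silenced and 1.25 in basal cultures, against 0.00 and -0.01 over all genes tested. The median difference between states was -1.55 over the list and 0.01 over all genes, and 20 of the 33 had a negative difference at an unadjusted p under 0.05, 11 of these also past FDR 0.05 in DESeq2. Over all genes tested, these shares were 5.88% and 0.951%. The mean log2 CPM over the list was 1.86 to 2.13 in silenced shNup153-2 libraries, 1.90 to 2.47 in silenced shControl libraries, 3.87 and 4.53 in basal shNup153-2 libraries and 3.14, 2.53, 3.37 and 2.71 in basal shControl libraries, so that the basal controls split by pair here too. With only replicates 1 and 3 as basal controls the median difference was -1.09, with 17 of the 33 negative at an unadjusted p under 0.05 and 0 past FDR 0.05 in edgeR. With only replicates 2 and 4 it was -1.90, with 23 at that p and 19 past FDR 0.05. Of 33 late activity-regulated genes tested, 0 rose and 1 fell in silenced cultures, while 14 rose and 3 fell in basal cultures, and their median log2 fold change was 0.14 in silenced and 0.65 in basal cultures. Their silenced counts, too, are near the shares over all genes.

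The nuclear receptor genes of the Nr4a family and Dusp1 illustrate the early group, and Pcsk1 the late one. The 4 genes printed below rose in basal cultures, and cyclic AMP response elements, which the activity-regulated factor CREB binds, are known in such promoters. For printing, a gene had to have a single window, and that window had to contain a half-site of this element, defined below. Acan and Vgf, which had a smaller edgeR p for the difference between states than all 4, are not shown. Trib1, whose p was smaller than those of Dusp1 and Pcsk1, is not shown either. The sites in the printed windows therefore follow from the choice, and only the shares given below compare gene groups. Each sequence is the RefSeq window of 250 bases before to 50 after the annotated start, 5′ to 3′ on the strand of the gene, in GRCm38.p6. Capitals mark the half-site TGACG and its reverse complement CGTCA, which overlap where they form the full palindrome TGACGTCA. The windows lie at chr2:57123954-57124253 (Nr4a2, minus strand), chr15:101266596-101266895 (Nr4a1, plus strand, at a start inside the longer gene of the gene annotation), chr17:26508423-26508722 (Dusp1, minus strand) and chr13:75089607-75089906 (Pcsk1, plus strand).
Nr4a2: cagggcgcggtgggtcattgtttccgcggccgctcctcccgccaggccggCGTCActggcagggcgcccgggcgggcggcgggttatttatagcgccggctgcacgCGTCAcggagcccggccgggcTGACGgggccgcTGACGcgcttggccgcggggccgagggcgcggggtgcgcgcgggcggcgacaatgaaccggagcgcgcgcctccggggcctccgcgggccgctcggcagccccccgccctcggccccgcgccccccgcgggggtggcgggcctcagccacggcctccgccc
Nr4a1: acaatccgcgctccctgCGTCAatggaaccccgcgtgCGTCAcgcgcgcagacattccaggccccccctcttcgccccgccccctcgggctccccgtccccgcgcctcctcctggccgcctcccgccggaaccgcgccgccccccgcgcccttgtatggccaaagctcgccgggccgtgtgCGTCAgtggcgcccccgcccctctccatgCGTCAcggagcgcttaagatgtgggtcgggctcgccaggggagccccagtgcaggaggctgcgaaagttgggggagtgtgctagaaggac
Dusp1: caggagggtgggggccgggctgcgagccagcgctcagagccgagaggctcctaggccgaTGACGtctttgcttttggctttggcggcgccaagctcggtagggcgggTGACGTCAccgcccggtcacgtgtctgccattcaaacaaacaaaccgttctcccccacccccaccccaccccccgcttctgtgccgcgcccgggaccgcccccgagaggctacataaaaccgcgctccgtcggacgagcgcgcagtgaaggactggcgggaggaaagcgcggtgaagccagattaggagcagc
Pcsk1: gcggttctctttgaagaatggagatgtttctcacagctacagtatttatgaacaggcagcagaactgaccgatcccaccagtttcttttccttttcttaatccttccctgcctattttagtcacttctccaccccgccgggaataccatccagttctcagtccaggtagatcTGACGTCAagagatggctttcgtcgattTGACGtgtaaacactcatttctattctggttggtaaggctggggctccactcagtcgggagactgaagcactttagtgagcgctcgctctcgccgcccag
Half-sites begin at -200, -144, -123 and -111 in Nr4a2 and at -233, -213, -69 and -40 in Nr4a1, counted from the start. The full palindrome occurs in Dusp1 and Pcsk1. A half-site on either strand was present in 18 of 26 immediate early genes with a window (69.2%), in 12 of 22 late ones (54.5%) and in 33.1% of 12692 tested genes with a window. A gene was counted where any of its windows held a half-site. Per window, which is another unit, the share was 20.8% of all 32851. Among retained genes that rose a half-site was present in 35.3% of 150 genes with a window. Among the genes whose difference between states had an edgeR FDR under 0.1 it was present in 6 of 19 genes with a window (31.6%), near the share over all tested genes, and the full palindrome was in 0 of the 19. These are letter matches in a fixed window and show no binding.

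Nr4a1 (chromosome 15, 101254269 to 101274795), an orphan nuclear receptor and early gene, did not pass the test under silencing. It had 3.26, 4.71 and 3.65 CPM in silenced shNup153-2 libraries, against 3.38, 3.18 and 2.07 CPM in silenced shControl libraries. In basal cultures it had 43.5 and 68.1 CPM with shNup153-2, against 5.87, 3.25, 9.63 and 3.62 CPM with shControl. The silenced groups overlapped and the basal groups did not. The log2 fold change was 0.43 (SE 0.38, edgeR FDR = 0.715) in silenced cultures and 3.31 (SE 0.38, edgeR FDR = 0.000213) in basal cultures. The difference was -2.89 (95% interval -4.06 to -1.71, edgeR FDR = 0.109, DESeq2 FDR = 0.000272). With only replicates 1 and 3 as basal controls it was -2.43, and with only replicates 2 and 4 it was -3.61.

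Arc, whose protein drives endocytosis of AMPA-type glutamate receptors, behaved similarly. Its levels were 3.82, 3.35 and 4.73 CPM in silenced shNup153-2 libraries, against 4.74, 5.76 and 1.49 CPM in silenced shControl libraries, and 22.9 and 49.4 CPM in basal shNup153-2 libraries, against 6.71, 2.89, 6.10 and 4.69 CPM in basal shControl libraries. Only the 2 basal shNup153-2 libraries stood apart. Its log2 fold change was -0.01 (SE 0.46) in silenced and 2.82 (SE 0.46) in basal cultures, a difference of -2.83 (SE 0.65, edgeR FDR = 0.169). Npas4, a neuron-specific early transcription factor that recruits inhibitory synapses, had 2.24, 1.08 and 4.31 CPM in silenced shNup153-2 libraries, against 1.01, 1.40 and 2.33 CPM in silenced shControl libraries. Its basal levels were 18.4 and 21.8 CPM with shNup153-2, against 2.81, 2.46, 3.38 and 2.08 CPM with shControl. The basal groups were apart by a wide margin, and the silenced groups overlapped. The difference between states was -2.21 (SE 0.61, edgeR FDR = 0.242).

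Other early genes called in basal cultures did not pass in silenced ones, with estimates of either sign. Egr1, a zinc-finger factor induced by activity, had log2 fold changes of 0.50 in silenced and 2.14 in basal cultures, and Fosb, a partner in AP-1, had -0.37 and 2.12. Egr4, of the same family as Egr1, had log2 fold changes of 0.02 in silenced and 1.99 in basal cultures. Trib1, a pseudokinase, had 0.07 and 1.95, and Ier2, an early response gene, had -0.09 and 1.53. Nr4a2, a nuclear receptor with roles in dopamine neurons, had opposite signs: its silenced estimate was -0.69 (edgeR FDR = 0.121) and its basal rise was 0.96 (edgeR FDR = 0.00929). Nr4a2 had 3.78, 2.27 and 3.11 CPM in silenced shNup153-2 libraries, against 4.60, 4.16 and 6.08 CPM in silenced shControl libraries, so that the groups lay in opposite order to the basal ones. Basal levels of Nr4a2 were 21.7 and 22.9 CPM with shNup153-2, against 10.7, 12.1, 11.4 and 11.7 CPM with shControl. The dual-specificity phosphatases Dusp1 and Dusp4, which switch off MAP kinases, had the same pattern of signs, with -0.56 and -0.65 in silenced and 1.26 and 1.36 in basal cultures.

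Egr2, Nr4a3 and Fos departed from this pattern. Egr2, a zinc-finger factor of the early response, fell in silenced cultures (log2 fold change -1.82, SE 0.40, edgeR FDR = 0.0343) and did not pass in basal cultures (0.26, SE 0.40). It had 2.31, 3.45 and 2.23 CPM in silenced shNup153-2 libraries, against 10.1, 13.7 and 4.30 CPM in silenced shControl libraries, with no overlap. Nr4a3 kept a positive estimate in silenced cultures, at 21.9, 11.8 and 28.6 CPM with shNup153-2 against 7.0, 6.2 and 11.2 CPM with shControl. The groups did not overlap, but the log2 fold change of 1.35 had an edgeR FDR of 0.0902, and 0.0363 with the replicate block, against a basal rise of 2.97. Fos did not pass in basal cultures (1.68, SE 0.67, edgeR FDR = 0.099), where it had 32.6 and 49.6 CPM with shNup153-2 and the control pairs lay far apart. Its silenced levels were 1.61, 2.02 and 1.20 CPM with shNup153-2, against 1.16, 3.06 and 0.424 CPM with shControl.

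Late genes that encode secreted or matrix proteins gave large differences. Bdnf (chromosome 2, 109674700 to 109727007), the neurotrophin whose transcription depends on calcium entry, had 4.13, 4.29 and 4.73 CPM in silenced shNup153-2 libraries, against 2.08, 4.28 and 2.31 CPM in silenced shControl libraries. In basal cultures Bdnf had 31.1 and 69.0 CPM with shNup153-2, against 3.85, 4.55, 9.63 and 5.63 CPM with shControl. Both shControl groups and the silenced shNup153-2 group thus lay below 10 CPM, and the basal shNup153-2 libraries lay above all of them. The difference between states was -2.48 (SE 0.56, edgeR FDR = 0.162, DESeq2 FDR = 0.00549). An antisense gene overlaps 14.4% of the exon bases of Bdnf, and whether the counting used the strand is not stated.

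Acan (chromosome 7, 79053483 to 79115099) encodes aggrecan, the core proteoglycan of perineuronal nets. It had 2.54, 1.92 and 5.49 CPM in silenced shNup153-2 libraries, against 2.02, 2.58 and 1.91 CPM in silenced shControl libraries, and 30.8 and 37.1 CPM in basal shNup153-2 libraries, against 2.79, 2.28, 3.08 and 2.42 CPM in basal shControl libraries. The 4 basal controls lay close together for this gene, and the silenced groups overlapped. Its log2 fold change was 0.62 (SE 0.33, edgeR FDR = 0.448) in silenced cultures and 3.68 (SE 0.33, edgeR FDR = 6e-05) in basal cultures, with a difference of -3.06 (SE 0.47, edgeR FDR = 0.0709). Vgf (chromosome 5, 137026392 to 137033351), a secreted neuropeptide precursor, had the largest difference named here. Its levels were 3.26, 5.65 and 3.72 CPM in silenced shNup153-2 libraries, against 4.37, 13.3 and 4.72 CPM in silenced shControl libraries, and 123 and 278 CPM in basal shNup153-2 libraries, against 13.6, 19.0, 32.3 and 28.2 CPM in basal shControl libraries. The silenced groups overlapped, with a negative estimate of -0.83 (SE 0.48), and the basal rise was 3.11 (SE 0.47). The difference of -3.94 (SE 0.67) had an edgeR FDR of 0.093, and 0.0307 with the replicate block.

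Other genes of secreted proteins and their processing also rose in basal cultures. Pcsk1, a prohormone convertase, had log2 fold changes of 0.51 (SE 0.31) in silenced and 2.56 (SE 0.30) in basal cultures. Scg2, a granin of dense-core vesicles, had 0.79 (edgeR FDR = 0.279, and 0.0396 with the replicate block) and 1.74, and Nptx2, a pentraxin that clusters AMPA receptors, had 0.66 and 2.18. Among the late genes that fell in basal cultures was Plk2, a kinase of synaptic scaling, at -0.41 in silenced and -1.44 in basal cultures. It had 597, 352 and 471 CPM in silenced shNup153-2 libraries, against 755, 478 and 659 CPM in silenced shControl libraries, and the groups overlapped. In basal cultures Plk2 had 233 and 246 CPM with shNup153-2, against 672, 749, 504 and 674 CPM with shControl, with no overlap.

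**Figure D2:**
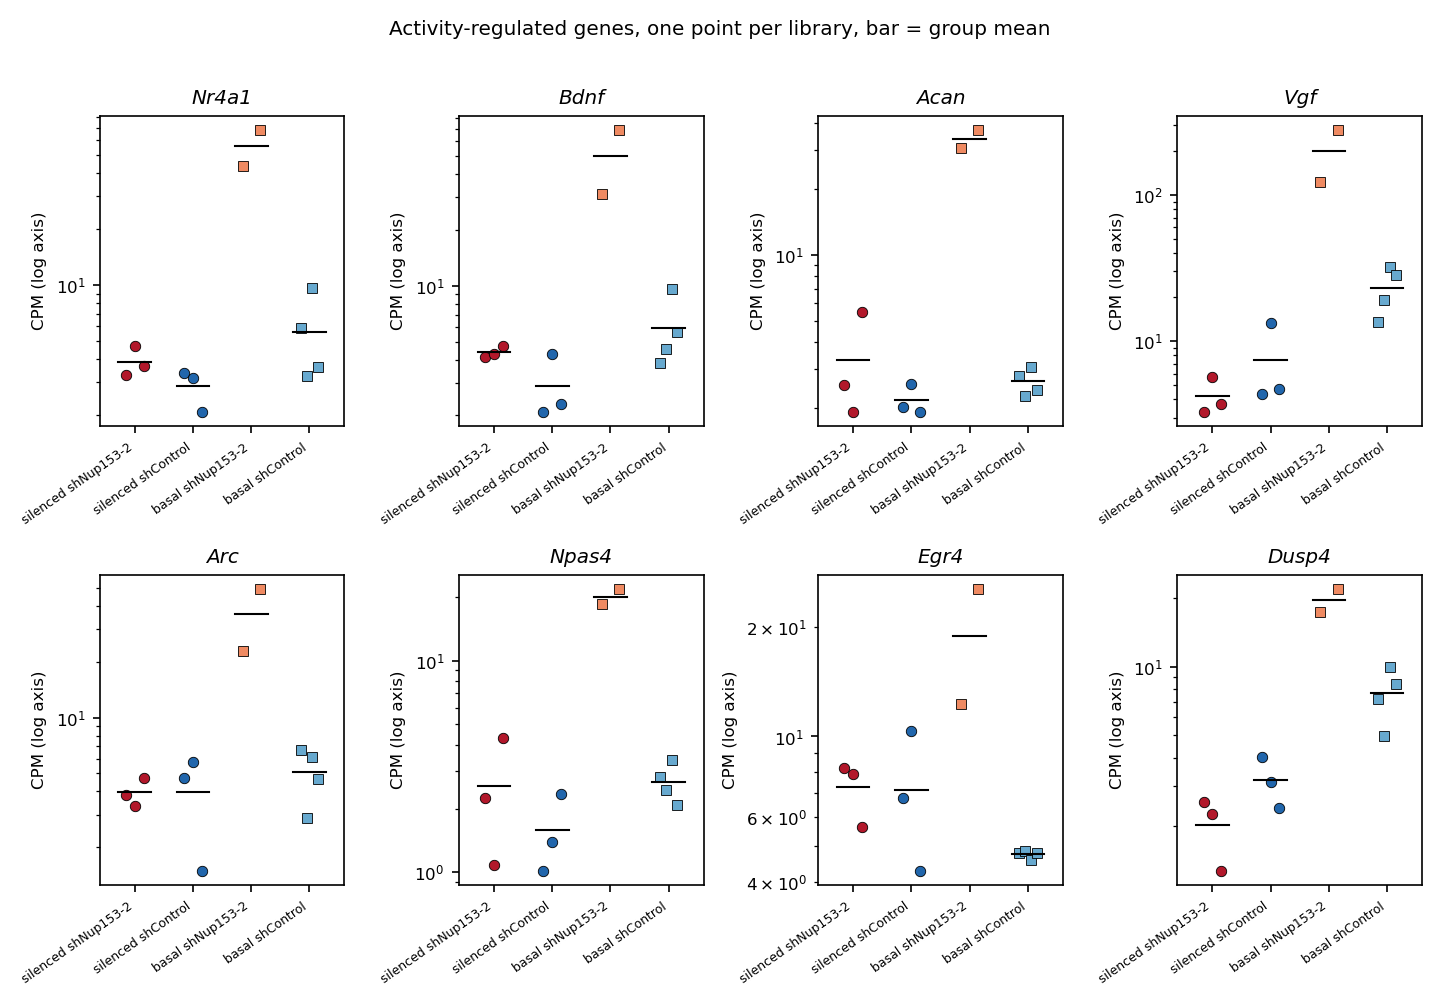
CPM per library on a log axis for 8 activity-regulated genes in the 4 groups, with 1 point per library and a bar at the group mean. For Nr4a1, Bdnf, Acan, Vgf, Arc and Npas4 the 2 basal shNup153-2 libraries lie above every other library, and the silenced groups overlap.

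At an edgeR FDR under 0.1 for the difference between states there were 21 genes, all called in basal cultures, with differences opposite in sign to the basal effect, which enters the difference with a minus sign. Of the 21, 18 rose and 3 fell in basal cultures, and 6 were also called in silenced cultures. All 21 passed FDR 0.05 in DESeq2, and 2 of them, Slc7a8 and Vgf, in edgeR with the replicate block. With only replicates 1 and 3 as basal controls 7 of the 21 passed FDR 0.05, and with only replicates 2 and 4 all 21 did, each with the same sign as with all 4.

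Slc7a8 (chromosome 14, 54722209 to 54781946), a neutral amino acid transporter subunit, had the smallest p. It stood at 52.9, 46.9 and 58.0 CPM in silenced shNup153-2 libraries, against 28.2, 30.4 and 37.3 CPM in silenced shControl libraries. In basal cultures it stood at 119 and 116 CPM with shNup153-2, against 13.7, 10.6, 19.1 and 11.9 CPM with shControl. Neither pair of groups overlapped, and the gap was narrower under silencing from both sides. The log2 fold change was 0.72 (SE 0.20, edgeR FDR = 0.0933, and 0.0274 with the replicate block) in silenced and 3.09 (SE 0.21, edgeR FDR = 1.21e-05) in basal cultures, and the difference was -2.37 (95% interval -3.0 to -1.74, edgeR FDR = 0.0549). Leaving out 1 library at a time it ranged from -2.57 to -2.26, and passed an FDR of 0.05 in 4 of 12 such fits. Rcan2, a calcineurin inhibitor, followed with 59.7, 55.9 and 66.4 CPM in silenced shNup153-2 libraries, against 34.4, 29.2 and 45.3 CPM in silenced shControl libraries, and 168 and 181 CPM in basal shNup153-2 libraries, against 25.9, 18.7, 24.9 and 29.7 CPM in basal shControl libraries. Its silenced effect of 0.74 had an edgeR FDR of 0.0662, and 0.0357 with the replicate block, and its difference was -2.07 (SE 0.27, edgeR FDR = 0.0549).

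A negative difference can come from the knockdown or from the control libraries, as each hairpin's change between states shows. For all 18 genes with a negative difference the shNup153-2 level was lower in silenced than in basal cultures, and for 11 the shControl level was also higher. The change in shNup153-2 exceeded that in shControl for 12 and was smaller for 6. For Acan most of the difference lay with shNup153-2, with a log2 change of -3.35 with shNup153-2 and -0.29 with shControl between silenced and basal cultures. For Fbxl16 most of it lay with shControl, at -0.39 with shNup153-2 and 1.68 with shControl. Changes between states in one hairpin compare libraries of different tables and are given without a test.

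Fbxl16, Hcn2, Ctnnd2 and Magee1 shared a shControl level that was higher in silenced cultures and a similar shNup153-2 level in both states. Fbxl16 (chromosome 17, 25809085 to 25821255), an F-box protein expressed in brain, had 516, 503 and 386 CPM in silenced shNup153-2 libraries, against 186, 274 and 186 CPM in silenced shControl libraries. In basal cultures it had 587 and 639.8 CPM with shNup153-2, against 55.6, 62.9, 74.4 and 75 CPM with shControl. The groups did not overlap in either state. The log2 fold change was 1.12 (SE 0.20, edgeR FDR = 0.014) in silenced and 3.20 (SE 0.20, edgeR FDR = 9.24e-06) in basal cultures, so the gene was retained at 35.1% of its basal effect. The difference was -2.07 (95% interval -2.68 to -1.47, edgeR FDR = 0.0549).

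Hcn2, a pacemaker channel subunit opened by hyperpolarization, had 80.5, 64.6 and 84.2 CPM in silenced shNup153-2 libraries, against 33.7, 32.7 and 39.2 CPM in silenced shControl libraries, and 102 and 88.7 CPM in basal shNup153-2 libraries, against 16.0, 16.1, 10.6 and 17.5 CPM in basal shControl libraries. It rose in both states, by 1.12 (SE 0.19) in silenced and 2.66 (SE 0.19) in basal cultures on the log2 scale, with an edgeR FDR of 0.093 for the difference. Ctnnd2, which encodes a neuronal delta-catenin of dendritic spines, rose by 1.41 in silenced and 2.91 in basal cultures. Magee1, a MAGE family gene, had 0.61 (edgeR FDR = 0.0503, and 0.0288 with the replicate block) in silenced and 2.06 in basal cultures. Rph3a, a Rab effector of synaptic vesicles that also binds NMDA receptors, had 257, 151 and 170.0 CPM in silenced shNup153-2 libraries, against 86.7, 77.8 and 92.9 CPM in silenced shControl libraries, and 392 and 377 CPM in basal shNup153-2 libraries, against 31.8, 40.6, 27.7 and 46.6 CPM in basal shControl libraries. It rose by 1.17 in silenced and 3.39 in basal cultures, and the order of the 4 group levels was the same as for Slc7a8.

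For Hivep1, Hdac9, Pou6f1 and Usp6nl the shNup153-2 level made up most of the difference. Hivep1, a large zinc-finger factor, had 36.0, 34.3 and 33.7 CPM in silenced shNup153-2 libraries, against 13.0, 13.7 and 15.5 CPM in silenced shControl libraries, and 191 and 184 CPM in basal shNup153-2 libraries, against 26.5, 13.8, 25.1 and 17.8 CPM in basal shControl libraries. It rose by 1.30 in silenced and 3.17 in basal cultures. Hdac9, a class IIa deacetylase that binds Mef2 factors, had 27.2, 27.3 and 30.1 CPM in silenced shNup153-2 libraries, against 28.8, 20.3 and 30.9 CPM in silenced shControl libraries, and 176 and 163 CPM in basal shNup153-2 libraries, against 56.1, 63.9, 58.4 and 46.1 CPM in basal shControl libraries. The silenced groups of Hdac9 overlapped, and its difference was -1.51 (SE 0.24, edgeR FDR = 0.0832). Kcnf1, a silent subunit of Kv2 potassium channels, and Dusp7, a phosphatase of MAP kinases, had silenced effects of -0.27 and 0.22 and basal rises of 1.44 and 1.43. The POU-domain factor gene Pou6f1 had -0.18 in silenced and 1.19 in basal cultures, and Usp6nl, a GTPase-activating protein of endosomal Rabs, had 0.27 and 2.13. Sprn, which encodes the prion-like protein Shadoo, had 0.57 (edgeR FDR = 0.0554, and 0.0324 with the replicate block) in silenced and 1.88 in basal cultures. R3hdm2 had 0.15 and 1.55, and Cbarp, which encodes a protein that binds calcium channel beta subunits, had -0.26 and 0.81.

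The 3 genes with a positive difference all fell in basal cultures. Hist3h2a, a histone H2A gene, had 36.8, 35.8 and 38.6 CPM in silenced shNup153-2 libraries, against 68.5, 64.3 and 66.2 CPM in silenced shControl libraries, and 9.01 and 8.64 CPM in basal shNup153-2 libraries, against 38.7, 57.8, 36.2 and 57.1 CPM in basal shControl libraries. It fell in both states, by 0.84 (SE 0.18, edgeR FDR = 0.0325) in silenced and by 2.43 (SE 0.22, edgeR FDR = 6e-05) in basal cultures on the log2 scale. Other genes overlap 33.0% of its exon bases on its own strand and 6.4% on the other, so its counts may be shared. Pla2g15, a lysosomal phospholipase, had 33.5, 30.3 and 33.3 CPM in silenced shNup153-2 libraries, against 32.3, 28.6 and 35 CPM in silenced shControl libraries, and 15.9 and 15.5 CPM in basal shNup153-2 libraries, against 37.9, 40.5, 32.2 and 34.2 CPM in basal shControl libraries. The silenced shNup153-2 values of Pla2g15 lay within the range of the silenced controls. Zfp189, a zinc-finger gene, had log2 fold changes of 0.46 in silenced and -1.0 in basal cultures, with opposite signs.

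**Figure D3:**
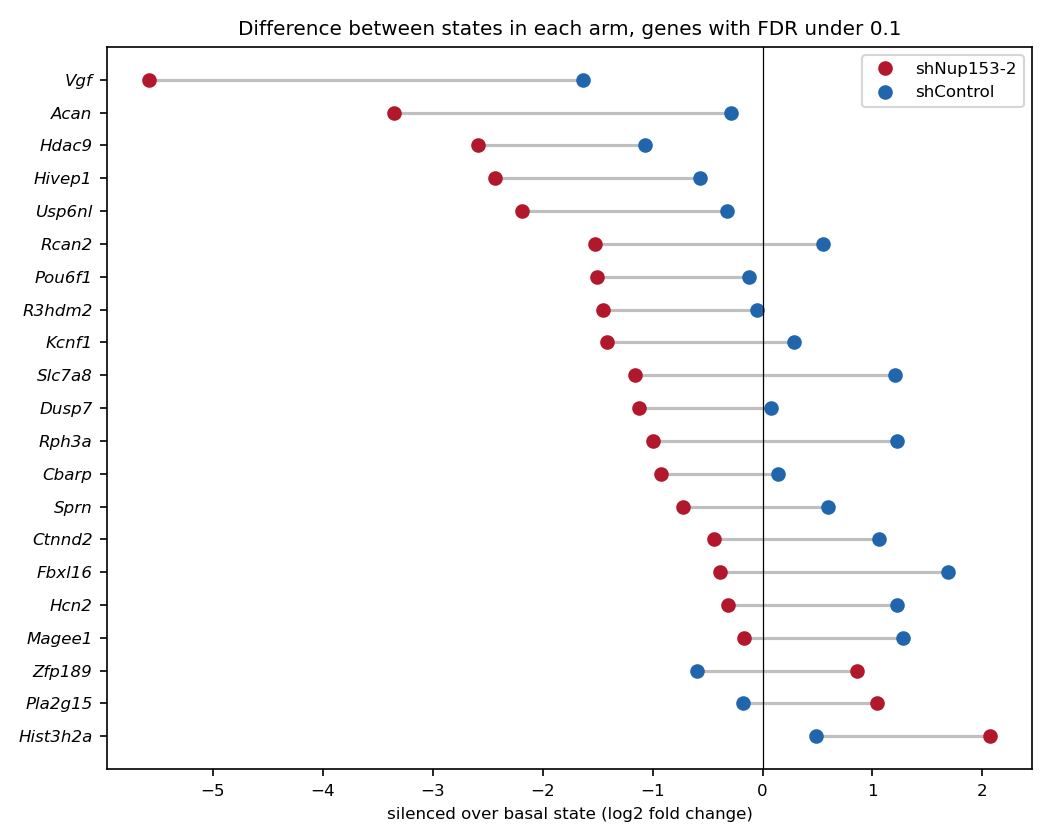
Log2 fold change of silenced over basal cultures with shNup153-2 (red) and with shControl (blue) for the 21 genes whose difference between states had an edgeR FDR under 0.1. The distance between the red and the blue point is the difference between states, from -3.94 in Vgf to 1.58 in Hist3h2a, and for Fbxl16, Hcn2, Ctnnd2 and Magee1 the blue point lies farther from zero than the red one.

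Panx2 and Wnt4 were among the retained genes with the largest rises. Panx2 (chromosome 15, 89059734 to 89073567), a pannexin channel, had 194, 148 and 134 CPM in silenced shNup153-2 libraries, against 49.4, 49.5 and 48.4 CPM in silenced shControl libraries. In basal cultures it had 186 and 162 CPM with shNup153-2, against 23.4, 24.6, 22.6 and 26.8 CPM with shControl. The knockdown libraries of both states lay in 1 range, and the controls did not. Its log2 fold change was 1.70 (SE 0.15) in silenced and 2.84 (SE 0.15) in basal cultures, a difference of -1.14 (95% interval -1.61 to -0.68, edgeR FDR = 0.109). Wnt4 (chromosome 4, 137277489 to 137299726), a secreted Wnt ligand, had 56.4, 62.4 and 55.5 CPM in silenced shNup153-2 libraries, against 12.3, 13.1 and 17.9 CPM in silenced shControl libraries, and 28.1 and 27.2 CPM in basal shNup153-2 libraries, against 6.22, 14.2, 5.74 and 8.81 CPM in basal shControl libraries. Mean levels of Wnt4 were higher in silenced cultures with both hairpins, and the effects were 2.01 in silenced and 1.67 in basal cultures, a difference of 0.34 (95% interval -0.57 to 1.25).

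Several retained genes changed in level between the states while their effect did not pass the test of a difference. Esr1, the estrogen receptor alpha gene, rose by 1.62 (SE 0.28) in silenced and 1.64 (SE 0.27) in basal cultures, with a difference of -0.02 (95% interval -0.90 to 0.87). Cckbr, a cholecystokinin receptor, had 5.31, 8.03 and 3.82 CPM in silenced shNup153-2 libraries, against 0.694, 1.78 and 0.610 CPM in silenced shControl libraries, and 19.2 and 28.8 CPM in basal shNup153-2 libraries, against 5.62, 7.44, 7.13 and 11.2 CPM in basal shControl libraries. Cckbr therefore rose in both states (2.47 in silenced, 1.62 in basal cultures) at levels that were lower in silenced cultures with both hairpins. Angptl2, a secreted angiopoietin-like protein, was lower still in silenced cultures, at 0.956, 1.22 and 0.515 CPM with shNup153-2, against 0.116, 0.0891 and 0.0796 CPM with shControl. It rose by 3.19 (SE 0.62) in silenced and 1.94 (SE 0.44) in basal cultures, with a wide interval for the difference of -0.44 to 2.94. Cpne9, Syk, Apol8, Serinc2 and Ly6g6e also rose in both states, with group means of at most 3.53 CPM. With the replicate block the silenced rises of Angptl2, Syk and Ly6g6e no longer passed, with edgeR FDR of 0.0563, 0.0669 and 0.0563.

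Among retained genes that fell, Mocos, a molybdenum cofactor sulfurase (chromosome 18, 24653691 to 24701575), had 0.536, 1.43 and 0.882 CPM in silenced shNup153-2 libraries, against 9.16, 8.28 and 7.22 CPM in silenced shControl libraries, and 0.896 and 1.13 CPM in basal shNup153-2 libraries, against 4.32, 3.97, 6.4 and 7.96 CPM in basal shControl libraries. It fell by 3.13 (SE 0.38) in silenced and by 2.48 (SE 0.42) in basal cultures on the log2 scale. Slc17a6, the vesicular glutamate transporter VGLUT2, had 16.2, 19.92 and 20.05 CPM in silenced shNup153-2 libraries, against 56.1, 48.7 and 44.1 CPM in silenced shControl libraries, and 22.9 and 21.1 CPM in basal shNup153-2 libraries, against 105, 73.1, 77.2 and 94.9 CPM in basal shControl libraries. It fell by 1.41 in silenced and by 1.99 in basal cultures, and no knockdown library reached a control level. Ndrg1, a stress-responsive gene of the N-myc downstream regulated family, had 102, 122 and 112 CPM in silenced shNup153-2 libraries, against 440, 274 and 336 CPM in silenced shControl libraries, and 44.7 and 31.3 CPM in basal shNup153-2 libraries, against 337, 314, 185 and 393 CPM in basal shControl libraries. Its fall was 1.64 in silenced and 3.01 in basal cultures, and the shControl level was similar in both states. Ccne1, the cyclin E1 gene, fell by 1.43 in silenced and by 2.43 in basal cultures. The low-level genes Mdfi, Trim72, Hpx, A3galt2 and Tnfrsf23 fell by 2.33 to 3.11 in silenced cultures.

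**Figure D4:**
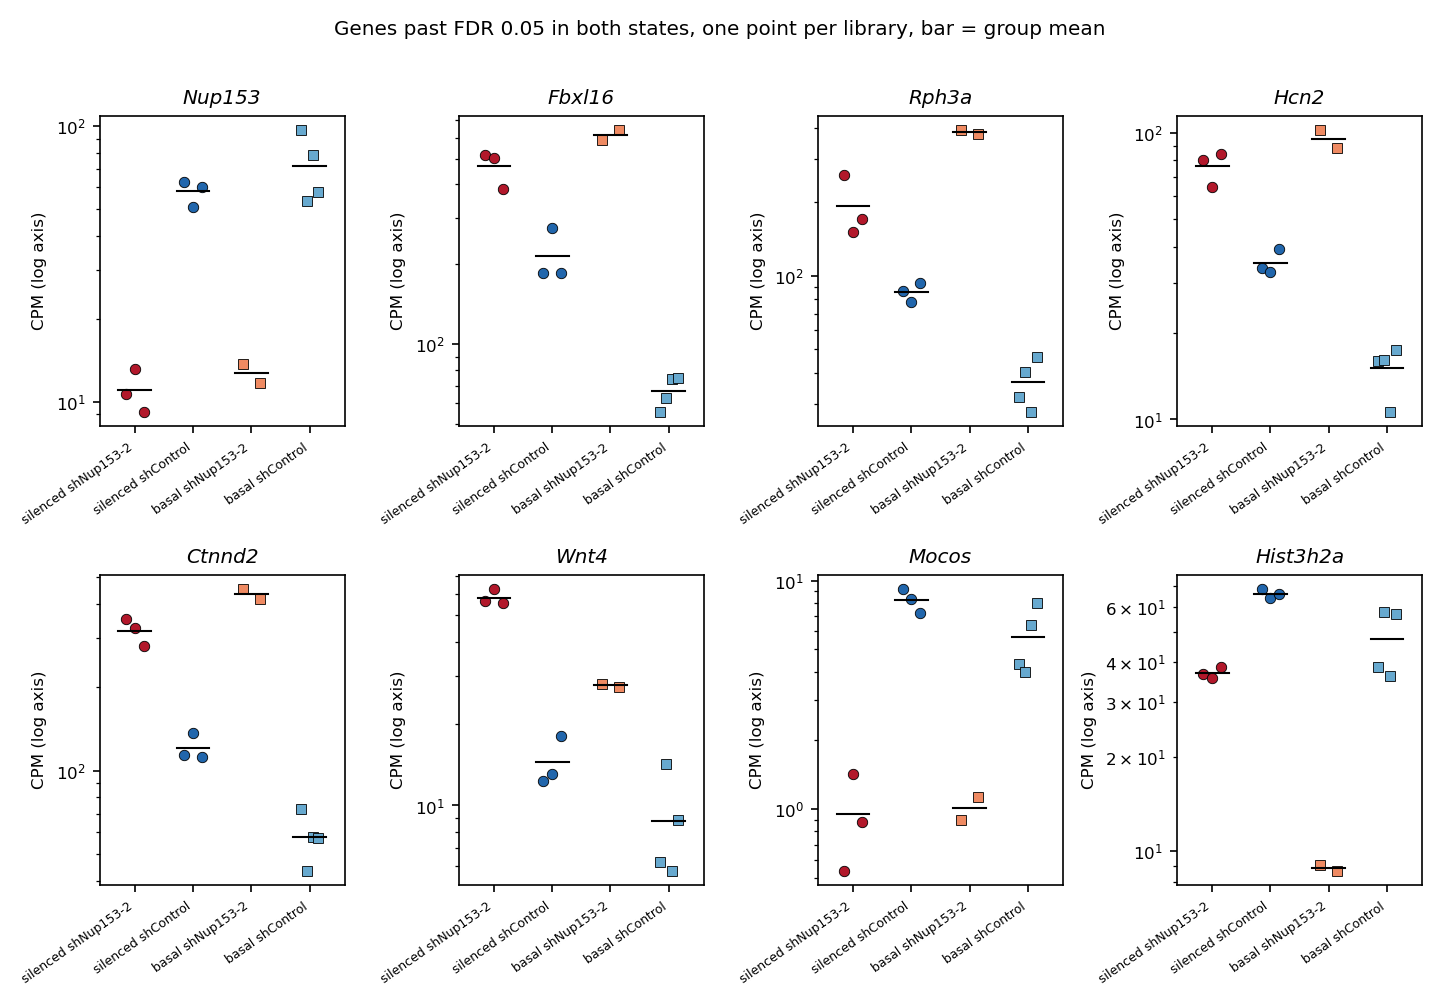
CPM per library on a log axis for 8 genes past FDR 0.05 in both states, with 1 point per library and a bar at the group mean. Nup153 and Mocos show similar gaps in both states, Fbxl16, Hcn2 and Ctnnd2 show shControl levels that are higher in silenced than in basal cultures, and Hist3h2a shows shNup153-2 libraries that are higher in silenced than in basal cultures.

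Synaptic and channel genes, like all genes tested, had more calls in basal than in silenced cultures. The counts below are to be read against the shares over all genes. These were 1.06% rose and 1.36% fell in silenced and 9.7% rose and 8.62% fell in basal cultures. With the replicate block the silenced rises numbered 9 among HCN and potassium channel genes, 4 among glutamate receptor and scaffold genes, 3 among presynaptic genes and 7 among axon guidance genes, against 4, 1, 1 and 2 without it. Of 68 HCN and potassium channel genes, 4 rose and 1 fell in silenced cultures, while 27 rose and 2 fell in basal cultures, with medians of 0.18 and 0.69. Kcnc4, a Kv3 channel subunit of fast-spiking neurons, was retained, at 48.5, 52.7 and 44.6 CPM in silenced shNup153-2 libraries, against 17.1, 20.9 and 18.8 CPM in silenced shControl libraries, and 104 and 100.0 CPM in basal shNup153-2 libraries, against 20.2, 26.8, 19.5 and 23.7 CPM in basal shControl libraries. Its rise was 1.36 in silenced and 2.18 in basal cultures. Kcnc2, another Kv3 subunit, did not pass in silenced cultures (0.32, SE 0.18) and rose in basal ones (1.31, SE 0.18), with levels of 9.37 to 16.4 CPM in the 6 silenced libraries and 48.9 to 138 CPM in the 6 basal ones. Of 31 sodium and calcium channel genes, 2 rose and 0 fell in silenced cultures, while 10 rose and 1 fell in basal cultures. Cacna1a, the P/Q-type calcium channel of presynaptic terminals, had log2 fold changes of 0.06 and 1.34, and Scn1a, the sodium channel of inhibitory neurons, had 0.08 and 1.15, with the silenced value given ahead of the basal one.

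Of 45 glutamate receptor and postsynaptic scaffold genes, 1 rose and 0 fell in silenced cultures, while 19 rose and 1 fell in basal cultures. The gene that rose in both was Shank3, a scaffold of the postsynaptic density, with 239, 245 and 180 CPM in silenced shNup153-2 libraries, against 125, 119 and 122 CPM in silenced shControl libraries, and 220 and 231 CPM in basal shNup153-2 libraries, against 59.0, 40.1, 54.0 and 46.9 CPM in basal shControl libraries. The knockdown levels lay in 1 range in both states and the shControl level was higher in silenced cultures. Grin1, the obligatory NMDA receptor subunit, showed the same with 422, 408 and 371 CPM in silenced shNup153-2 libraries, against 360, 368 and 326 CPM in silenced shControl libraries, and 419.5 and 416 CPM in basal shNup153-2 libraries, against 187, 186, 182 and 198 CPM in basal shControl libraries. Its log2 fold change was 0.19 (SE 0.12, edgeR FDR = 0.565) in silenced and 1.15 (SE 0.13, edgeR FDR = 0.000174) in basal cultures. Shank1 had 0.09 and 2.04, and Shank2 had 0.59 and 2.28, in the same order of states.

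Of 45 presynaptic release genes, 1 rose and 4 fell in silenced cultures, while 14 rose and 5 fell in basal cultures. Bsn, an active zone scaffold, had log2 fold changes of 0.60 (SE 0.25) in silenced and 2.24 (SE 0.26) in basal cultures. Slc17a9, a vesicular nucleotide transporter, had 0.350, 0.279 and 0.711 CPM in silenced shNup153-2 libraries, against 0.925, 0.683 and 1.11 CPM in silenced shControl libraries, and 0.0943 and 0.107 CPM in basal shNup153-2 libraries, against 1.44, 1.30, 1.75 and 1.13 CPM in basal shControl libraries. It fell in basal cultures (-3.76, SE 0.51) and did not pass in silenced ones (-1.0, SE 0.38), at levels near or below 1 CPM. Of 16 GABA-A receptor and chloride transporter genes, 1 rose in silenced and 2 rose in basal cultures, the latter near the 9.7% over all genes. The retained gene was Slc12a5, the neuronal chloride exporter KCC2, which rose by 0.86 in silenced and 1.90 in basal cultures.

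Clustered protocadherins, which give neurons distinct surface identities, had calls in basal cultures. Of 55 tested, 0 rose and 0 fell in silenced cultures, while 21 rose and 0 fell in basal cultures by edgeR, with median log2 fold changes of 0.12 and 0.76. At an unadjusted p under 0.05, 11 of the 55 had a negative difference between states and 0 a positive one. The shares over all genes tested were 1.06% and 1.36% in silenced cultures, so that few calls among 55 are no trait of the list. In basal cultures they were 9.7% rose and 8.62% fell. The mean log2 CPM over the list was 2.73 to 3.04 in silenced shNup153-2 libraries, 2.59 to 2.99 in silenced shControl libraries, 3.74 and 3.56 in basal shNup153-2 libraries and 3.38, 2.43, 2.96 and 2.55 in basal shControl libraries. With only replicates 1 and 3 as basal controls 11 of the 55 rose in basal cultures, and with only replicates 2 and 4, 44 did. Genes of a cluster share exons and their reads may be divided among them. Of 59 axon guidance genes, 2 rose in silenced cultures, while 15 rose and 1 fell in basal ones. Sema6b, a transmembrane semaphorin, rose in both, at 285, 202 and 260.2 CPM in silenced shNup153-2 libraries, against 129.7, 135 and 121 CPM in silenced shControl libraries, and 145 and 123 CPM in basal shNup153-2 libraries, against 40.0, 48.3, 33.7 and 49.0 CPM in basal shControl libraries. Robo2, a Slit receptor, had log2 fold changes of 0.35 in silenced and 1.18 in basal cultures. Of 29 calcineurin and MAP kinase feedback genes, 0 rose and 0 fell in silenced cultures, while 12 rose and 1 fell in basal ones.

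Genes of the chromatin and transport machinery were called in silenced cultures at about the share of all genes (1.06% rose and 1.36% fell). Of 40 histone deacetylase and corepressor genes, 1 rose and 0 fell in silenced cultures, while 8 rose and 4 fell in basal ones. Hdac5, a class IIa deacetylase that leaves the nucleus upon activity, had 131, 126 and 144 CPM in silenced shNup153-2 libraries, against 133, 127 and 145 CPM in silenced shControl libraries, and 168 and 173 CPM in basal shNup153-2 libraries, against 63.1, 93.0, 70.8 and 99.3 CPM in basal shControl libraries. Its silenced libraries could not be separated by hairpin, and the effects were -0.02 (SE 0.17) and 1.06 (SE 0.17). Mef2d, a transcription factor bound by class IIa deacetylases, had 0.31 and 1.39. Of 30 nucleoporin genes, Nup153 alone was called in silenced cultures, while 2 rose and 4 fell in basal ones. Rae1 and Nup43, subunits of mRNA export and of the pore's Y complex, had -0.10 and -0.17 in silenced cultures and fell by 0.81 and by 1.14 in basal ones. Of 31 nuclear transport factor genes, 0 rose and 1 fell in silenced cultures and 0 rose and 2 fell in basal ones.

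Metabolic and stress lists had their gap in places where the control libraries also spread. Respiratory chain genes had a median log2 fold change of 0.02 in silenced and -0.59 in basal cultures, and 0 of 57 had a negative difference, against 49.2% of all genes tested, although 0 fell in silenced and 5 fell in basal cultures by the test. The mean log2 CPM over the list was 6.56 to 6.73 in silenced shNup153-2 libraries, 6.59 to 6.70 in silenced shControl libraries, 6.2 and 6.28 in basal shNup153-2 libraries, and 6.26, 7.37, 6.30 and 6.95 in basal shControl libraries. Basal shControl replicates 1 and 3 lay at the level of the basal shNup153-2 libraries, and replicates 2 and 4 lay above them. With only replicates 1 and 3 as basal controls the basal median was -0.04 and 21 of 57 differences were negative. Ndufb6, a subunit of complex I, had a difference of 0.87 (SE 0.42) with all 4 controls, 0.25 with only replicates 1 and 3 and 1.28 with only replicates 2 and 4. Unfolded protein and integrated stress genes had a negative difference in 34 of 35, with medians of -0.38 in silenced and 0.23 in basal cultures. Of these 0 were called in silenced cultures and 1, Ppp1r15a, a phosphatase subunit of stress recovery, rose in basal ones. The list mean varied from 5.26 to 7.02 log2 CPM among basal shControl libraries, and in silenced shControl libraries it was 6.75 in replicate 2 against 5.37 and 5.79 in replicates 1 and 3. Without silenced shControl replicate 2 the silenced median was -0.07 and the median difference -0.36, against -0.81 with all libraries. With only replicates 1 and 3 as basal controls the basal median was -0.11.

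The other lists are to be read against the shares over all genes, 1.06% rose and 1.36% fell in silenced and 9.7% rose and 8.62% fell in basal cultures, and most lie near them. Of 30 cell cycle genes, 0 rose and 1 fell in silenced cultures, while 1 rose and 5 fell in basal ones, and Plk1, a mitotic kinase, had -0.28 in silenced and -1.87 in basal cultures. Of 25 cholesterol synthesis genes, 0 were called in silenced cultures and 2 fell in basal ones, Msmo1 and Sc5d, which had -0.78 and -0.28 in silenced cultures. The silenced value of Msmo1 had an edgeR FDR of 0.292, and 0.0419 with the replicate block. Of 24 Notch pathway genes, 0 rose and 1 fell in silenced cultures, while 3 rose and 4 fell in basal ones. Hes5, a Notch target, fell in basal cultures (-4.91, SE 1.11), with 0.283 and 0.241 CPM with shNup153-2 against 5.09, 7.40, 1.69 and 17.9 CPM with shControl, and had -1.56 (SE 0.78, edgeR FDR = 0.399, and 0.0156 with the replicate block) in silenced ones. Lists of p53 targets (30), interferon response genes (29), glycolysis and hypoxia genes (35) and genes suppressed or scaled by activity (19) had 1, 0, 1 and 0 falls in silenced cultures and 4, 1, 2 and 2 in basal ones, with 0, 0, 0 and 0 rises in silenced and 1, 1, 1 and 4 in basal ones. None of 20 astrocyte or 18 oligodendrocyte markers was called in either state. Of 22 interneuron markers, 0 were called in silenced cultures, while 3 rose and 2 fell in basal ones. The interneuron peptide gene Sst fell in basal cultures (-1.83), where its control levels of 146, 206, 80.1 and 392 CPM lay apart by pair, and had 0.16 in silenced ones.

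**Figure D5:**
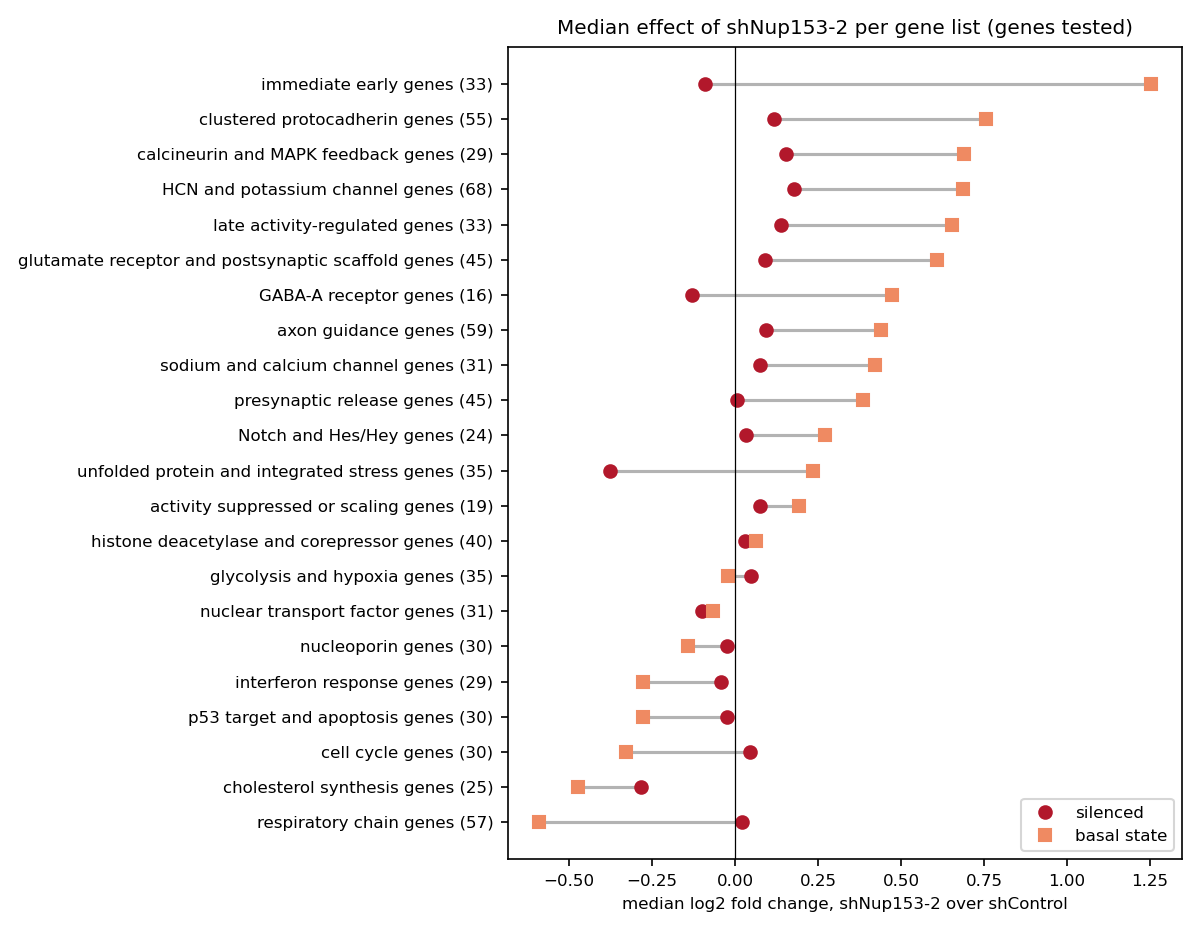
Median log2 fold change of shNup153-2 over shControl per gene list, in silenced (red circles) and basal cultures (orange squares), with the number of genes tested in brackets. The gap is widest for immediate early genes, with medians of -0.09 in silenced and 1.25 in basal cultures, and the respiratory chain list has medians of 0.02 and -0.59.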

How the data were processed

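Poly(A) RNA was sequenced from strand-specific libraries, and the deposited values are raw counts per gene symbol in a basal and a silenced table; per the submitters' processing notes the authors used featureCounts 2.0.1 and FastQC with mm10. Which aligner and gene annotation were used, and whether counting used strand, is not stated in the labels. There are 26371 symbols in the basal counts and 55304 in the silenced counts, and the 26371 shared ones were joined by symbol. The 4 columns of other samples, among them the same-named ones, were not used. Groups follow the sample titles, since the descriptions of knockdown samples name the control virus.

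Genes with enough counts by edgeR's filter (minimum count 10) were kept, libraries were TMM-normalized, and a model with 1 mean per group was fitted to all 12 libraries with edgeR 4.0.16 in R 4.3.3. Hairpin effects in each state and their difference were tested with the quasi-likelihood F test and Benjamini-Hochberg adjustment over all genes tested. Limma 3.58.1 (voom) and DESeq2 1.42.0 gave alternatives. The 95% intervals are the edgeR estimate plus or minus a t quantile times its SE. They give the uncertainty of the fitted difference and not the range of single libraries. A gene was retained where both states passed FDR 0.05 in 1 direction; lost or weakened also required the difference to pass.

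Same-numbered silenced libraries deviated together across genes (r = 0.2379, 0.5244 and 0.5513). The labels do not say that a number marks a shared litter. The main model has no term for pairing, so its counts, SE and FDR treat the libraries as unpaired. Pairing by number enters only in the fits with a replicate block. The block within each state gave 881 silenced calls and 704 retained genes, against 507 and 434 in the main model. In basal cultures r was 0.2141 and 0.0461. Replicates are separate litters per the labels' protocols.

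Named genes are those of the target and activity genes, the 10 smallest p of the difference, 10 retained genes that rose and 8 that fell with the largest smaller effect, and up to 4 per list with the smallest p, at 1 CPM or more in the highest group and without overlap of libraries; the other genes with FDR under 0.1 were added. Of the genes this rule names, 2 are not reported here. Gfap was named after its values were seen. The hairpin, the libraries, the gene lists and the rule were chosen with earlier results of these data known. Promoters came from RefSeq tables (GRCm38.p6) and gene coordinates from GENCODE.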

Additional observations from a re-analysis of the deposited data

Results flagged for a closer look

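Among 100 named genes examined in the 4 basal shControl libraries, 3 had a library whose gap to its nearest neighbour exceeded Dixon's 95% critical value, as a share of the group's range. Such a gap arises by chance in about 1 in 20 groups. Cpne9 had 0.036119 CPM in basal shControl replicate 2, with the nearest library at 0.37771 CPM, a gap share of 0.85. Apol8 had 0.15738 CPM in basal shControl replicate 4, with the nearest at 0.1806 CPM, a gap share of 0.927. Msmo1, an enzyme of cholesterol synthesis, had 306.22 CPM in basal shControl replicate 2, with the nearest at 143.25 CPM, a gap share of 0.85.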

How the results depend on the processing

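The count of genes whose hairpin effect differed between states, 0 with all libraries, was 3 without a filter on low counts, 7 with a filter of at least 1 CPM in 3 libraries, 285 with DESeq2 and 1 with limma-voom. It was 13 without basal shControl replicates 2 and 4 and 4231 without replicates 1 and 3, 2 alternatives chosen after seeing the data. Leaving out 1 library at a time gave 0 to 12, with 12 without basal shControl replicate 1. For the replicate block, the count was 2 with pairing within each state and 2 with pairing shared by both states, the silenced calls were 881 and the retained genes 704, and genes with an unadjusted p under 0.05 for the difference 3616, against 2393 without it. Silenced calls, 507 with all libraries, were 1272 with DESeq2, 1184 without basal shControl replicates 2 and 4, 1186 without replicates 1 and 3, and 68 to 680 leaving out 1 library at a time. In separate fits of each state they numbered 652. Basal calls, 3833 with all libraries, were 1880 in separate fits of each state, 8507 without basal shControl replicates 1 and 3, and 934 to 5186 leaving out 1 library at a time, with 934 and 1188 without either basal shNup153-2 library. Retained genes, 434 with all libraries, were 911 with DESeq2, 890 without basal shControl replicates 2 and 4, 779 at FDR 0.1, and 65 to 557 leaving out 1 library at a time. The slope of silenced on basal effects was 0.1622 without basal shControl replicates 1 and 3. The causes were not tested. Of the named genes' estimates under these alternatives, 2078 kept their direction and side of the threshold, 171 passed it newly, 51 no longer passed it and 0 changed sign. With 2 basal knockdown libraries, the median SE of the difference was 0.41 on the log2 scale, which limits the differences that can be called.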
